A study of Cicer arietinum with 8 samples.

Results

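Among the chickpea genes measured in roots, 81 loci with a gene name had a higher level under salinity stress than in the control in the tolerant genotype and a lower level under stress in the sensitive genotype. They are 81 of 27876 named loci and of 30692 loci in all. The members were chosen by their measured FPKM (fragments per kilobase of transcript per unit of sequencing depth, a level corrected for transcript length). A member had an FPKM in ST salinity stress at least 1.5 times that in ST control, an FPKM in SS control at least 1.5 times that in SS salinity stress, and an FPKM of at least 2 in both ST salinity stress and SS control. All 4 groups enter this choice, so the directions and sizes of the stress changes below describe the members and are not findings about them.

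The groups were ST salinity stress and ST control, both of the salinity tolerant genotype JG62, and SS salinity stress and SS control, both of the salinity sensitive genotype ICCV2. Stressed plants were 12 days old when they were first given 80 mM NaCl, which was repeated on alternate days for 6 days, and control plants received water without salt. Roots of all groups were taken at 18 days, and 2 libraries were made per group, 8 in all. The deposited table holds 1 pooled value for each locus in a group. No spread between libraries, no test and no depth could thus be obtained here, and each difference below is without a replicate check. The study itself called differentially expressed genes from these libraries with Cuffdiff, and its calls for the members were not used here. Each genotype is represented by 1 line, so a difference between SS and ST is a difference between these lines.

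Salt reaches the plant through the root, where it first lowers the availability of water and then loads the tissue with sodium and chloride. Roots respond through ion transporters that extrude or sequester sodium, through compatible solutes and osmolytes, through enzymes that remove reactive oxygen, and through hormone signals that alter root growth. Genotypes of a crop can differ in which of these responses they mount. The loci carry Ca_ identifiers of the Kabuli chickpea genome without coordinates or functional names, and none of these identifiers (0) matched the RefSeq gene table of the CDC Frontier assembly, so roles are given only for genes that the study describes. For the same reason the root label, which the source field gives while the tissue field reads salinity, could not be checked against root marker genes.

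Of the 15710 named loci with FPKM of at least 2 in ST salinity stress and SS control, 81 (0.516%) met the rule. The ST condition of the rule alone held for 818 of them (5.21%) and the SS condition alone for 493 (3.14%). The members thus made up 9.9% of the loci that were higher under stress in ST and 16.4% of those that were lower under stress in SS. Under the same thresholds, the opposite pattern (lower under stress in ST and higher in SS) was found at 36 of 15638 named loci (0.23%), a higher level under stress in both genotypes at 126 of 15698 (0.803%), and a lower level in both at 113 of 15722 (0.719%). These shares were fixed by the same thresholds as the rule and were not tested. The count was 13 with a 2-fold threshold and 437 without the FPKM minimum. With the columns scaled by their median ratios, there were 74 members and 42 loci of the opposite pattern. Roots are mixtures of cell types, and a lower level from fewer cells of a type cannot be told apart from less RNA per cell.

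**Figure D1:**
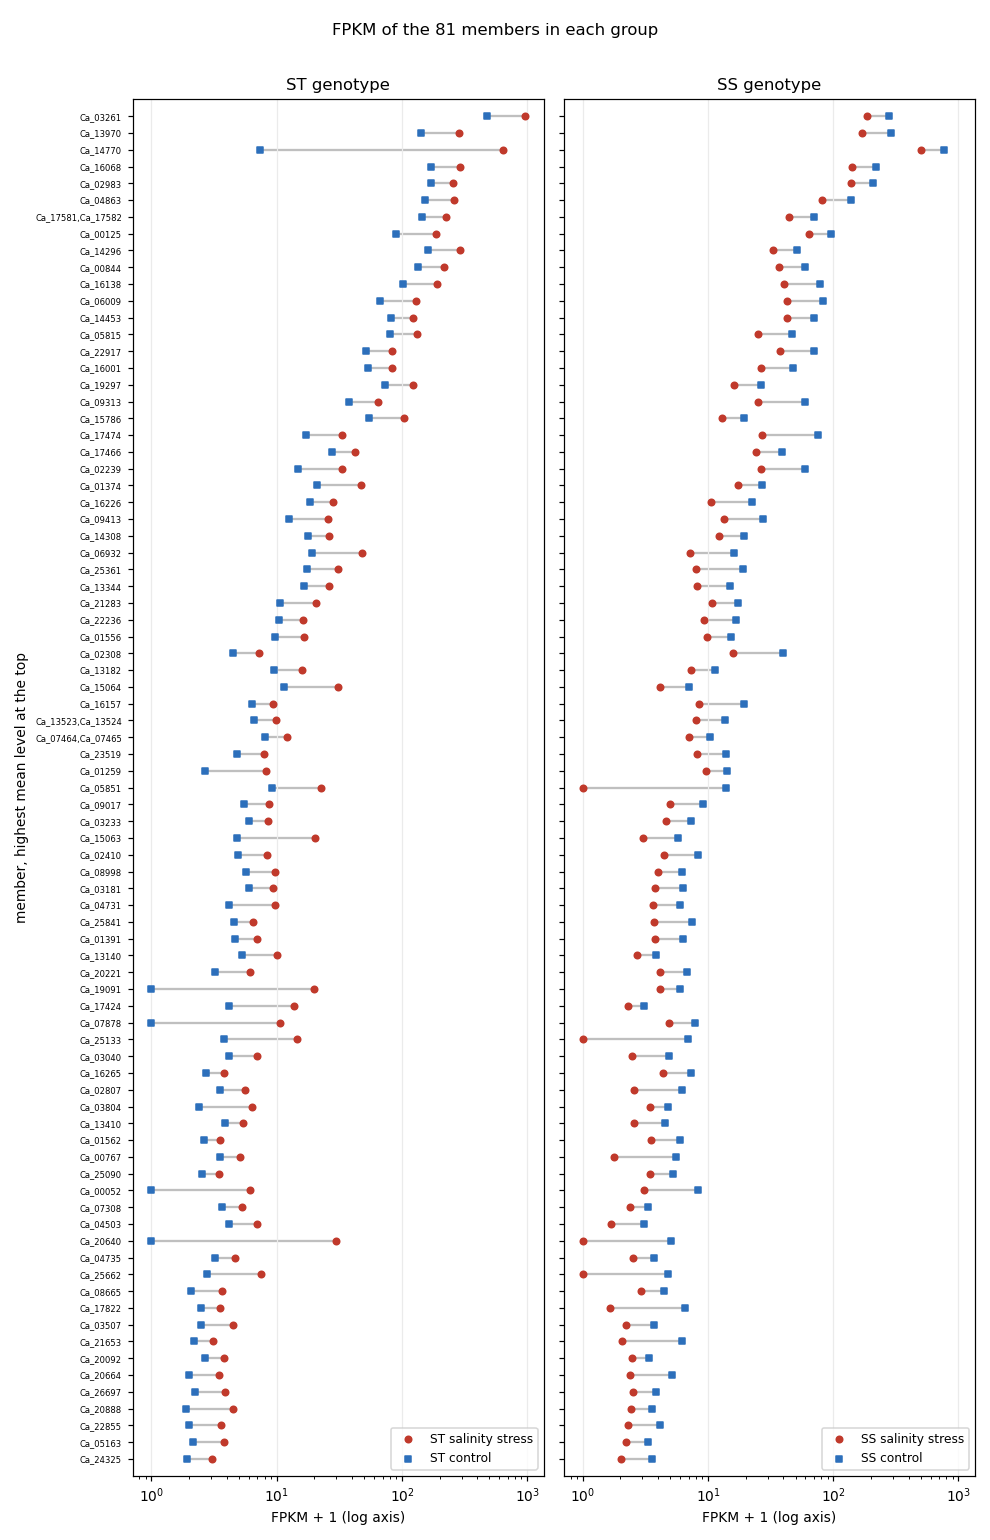
FPKM + 1 on a log axis for each of the 81 members (rows, ordered by mean level) in the ST genotype (left) and the SS genotype (right), with circles for salinity stress and squares for control. In ST every circle lies to the right of its square and in SS every circle lies to the left, as the rule demands, and the highest values reach 962 in ST salinity stress and 769 in SS control.

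Most of the differences were modest. The ST level was higher under stress by a median of 1.80-fold over the 77 members above 0 in ST control, and the SS level was lower by a median of 1.85-fold over the 77 members above 0 in SS salinity stress. On the log2 scale these medians of the stress to control ratio were 0.85 in ST and -0.89 in SS, beside 0.05 and -0.03 over the named loci that met the FPKM minimum. In ST 32 members differed at least 2-fold, in SS 30, and 13 did so in both genotypes. These counts and the next ones include members listed at 0 in a group of low level, which meet any fold threshold. Such members were 5 of the 13. At least 3-fold differences were found for 12 members in ST and 11 in SS, with 4 members at this size in both. All 4 (Ca_20640, Ca_25133, Ca_00052 and Ca_25662) were listed at 0 in a group, so no member above 0 in every group reached 3-fold in both.

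The members ran from barely above the minimum to abundant transcripts. The highest of the 4 FPKM values was below 10 in 35 members (43.2%), against 22.7% of the named loci with the FPKM minimum, and it was at least 100 in 16 (19.8%, against 15.1%). The median FPKM over members was 11.1 in ST salinity stress, 4.73 in ST control, 3.84 in SS salinity stress and 8.17 in SS control. Together the members held 0.389% of the summed FPKM of all loci in ST salinity stress and 0.199% in ST control, and 0.146% in SS salinity stress and 0.256% in SS control. Both low and high levels thus took a larger share of the members than of all these loci, which was not tested. Since the depth is unknown, the precision of the low values cannot be given.

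Ranked by the smaller of the 2 changes on the log2(FPKM + 1) scale, 10 members led the list, and 5 of them were listed at 0 in at least 1 group. Ca_20640 stood first. It had FPKM 28.7 in ST salinity stress and was listed at 0 in ST control, and it was listed at 0 in SS salinity stress with 4.05 in SS control. It was the only member listed at 0 in both groups of low level. Ca_25133 had FPKM 13.6 in ST salinity stress and 2.77 in ST control, and a listed 0 in SS salinity stress against 5.87 in SS control. Ca_05851 had 21.6 in ST salinity stress and 8.12 in ST control, with a listed 0 in SS salinity stress against 13.0 in SS control. In both of these genes the tolerant genotype kept a measurable level in each condition, and the zero occurred only in the stressed sensitive roots.

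Ca_25662 showed the same arrangement at a lower level, with 6.44 in ST salinity stress, 1.78 in ST control, a listed 0 in SS salinity stress and 3.81 in SS control. Ca_00052 had its zero on the other side, with 5.08 in ST salinity stress and a listed 0 in ST control, beside 2.09 in SS salinity stress and 7.35 in SS control. An exact 0 in this table may be a failed estimate as well as an absent transcript, and no fold is given for these genes.

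The other 5 of the leading 10 had FPKM above 0 in every group. Ca_06932 had FPKM 47.2 in ST salinity stress and 18.3 in ST control, a 2.58-fold difference, and 6.16 in SS salinity stress against 15.1 in SS control, 2.46-fold lower. The controls of the genotypes were close to each other in this gene and the stressed groups stood apart on either side of them. Ca_02239 had 32.0 in ST salinity stress and 13.7 in ST control (2.34-fold), and 25.5 in SS salinity stress against 58.7 in SS control (2.30-fold lower). Here the sensitive control was the highest of the 4 groups. Ca_09413 had 24.7 in ST salinity stress and 11.7 in ST control, and 12.4 in SS salinity stress against 26.4 in SS control, 2.12-fold higher in ST and 2.13-fold lower in SS between nearly the same end points. Ca_15063 had 19.3 in ST salinity stress and 3.85 in ST control (5.01-fold), beside 2.01 in SS salinity stress and 4.82 in SS control. Ca_06009 was the most abundant of the 10, with 127.7 in ST salinity stress, 65.8 in ST control, 41.6 in SS salinity stress and 81.7 in SS control.

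**Figure D2:**
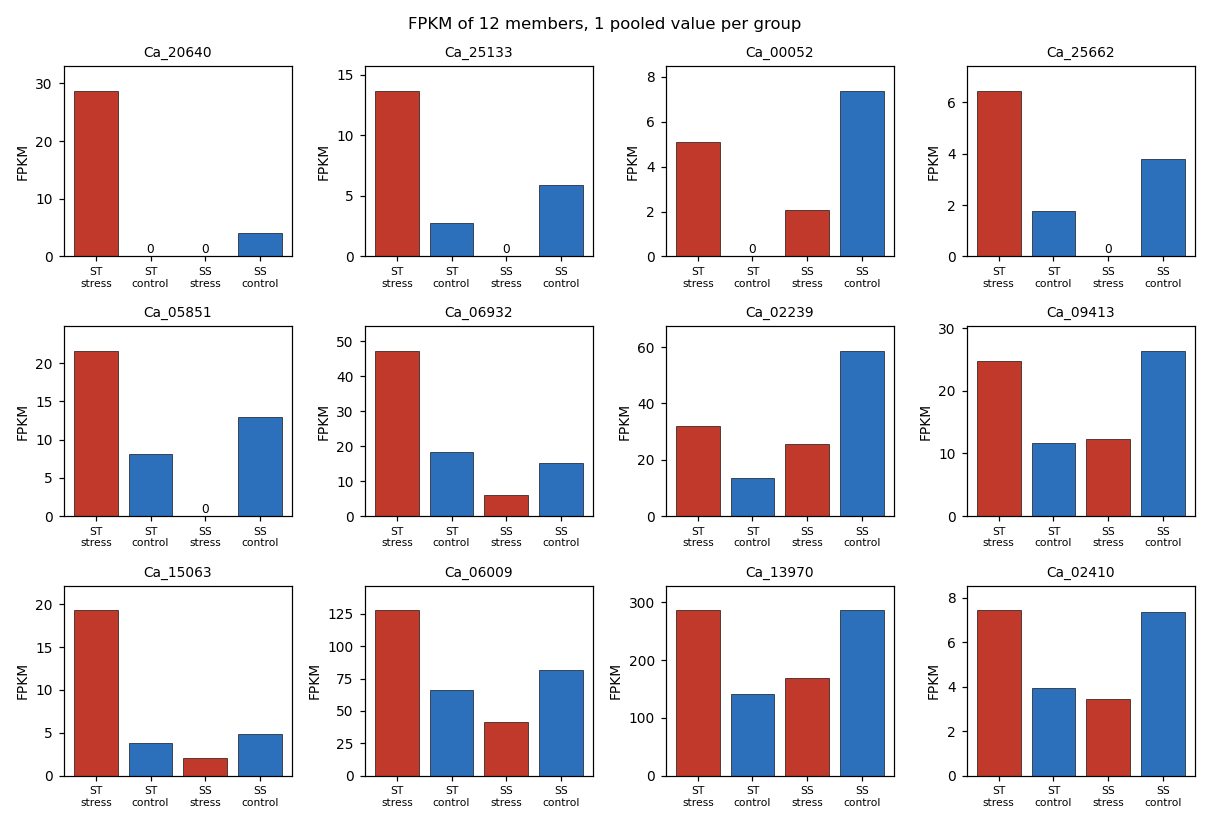
FPKM (vertical axes from 0, each gene on its own scale) in ST salinity stress, ST control, SS salinity stress and SS control for the 10 members with the largest smaller change and for Ca_13970 and Ca_02410, which the study names. Each bar is 1 pooled value without an error bar, and a 0 marks a group in which the gene is listed at 0, as for Ca_20640 in ST control and SS salinity stress.

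The largest single differences belonged partly to other genes. Ca_14770 had the largest ST fold. Its FPKM was 636 in ST salinity stress and 6.34 in ST control, a 100.3-fold difference, while it was 504 in SS salinity stress and 769 in SS control (1.53-fold lower). Its level was thus high in all groups except ST control, and the place of this gene among the members in ST depends on the value of ST control alone. Ca_19091 had 18.8 in ST salinity stress and a listed 0 in ST control, beside 3.14 in SS salinity stress and 5.03 in SS control. Ca_07878, with 9.60 in ST salinity stress and a listed 0 in ST control, had 3.84 in SS salinity stress and 6.89 in SS control. On the SS side the largest differences on the log2(FPKM + 1) scale were those of Ca_05851, Ca_25133 and Ca_20640 described above. Among the members above 0 in SS salinity stress, the largest SS fold was in Ca_17822, picked after its values were seen, with 0.652 in SS salinity stress and 5.61 in SS control (8.60-fold lower), and with 2.53 in ST salinity stress and 1.47 in ST control.

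**Figure D3:**
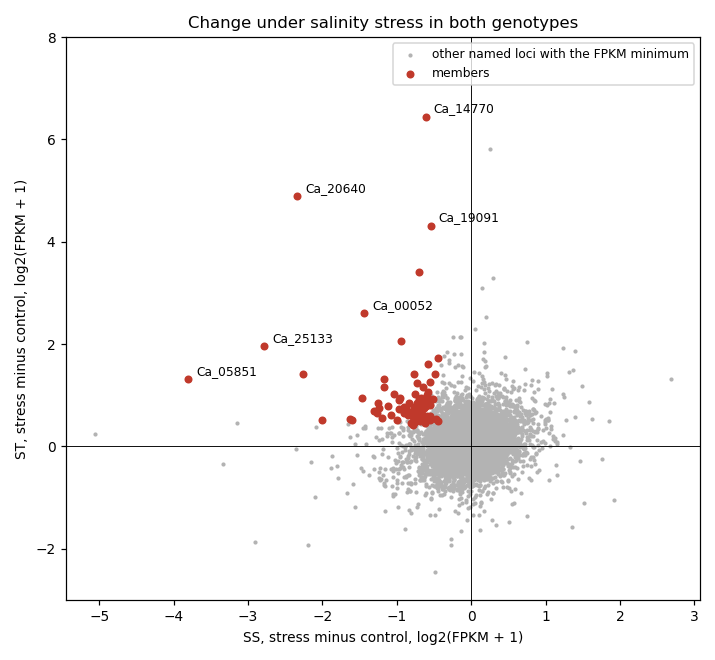
Change under salinity stress (stress minus control on the log2(FPKM + 1) scale) in ST (vertical axis) against SS (horizontal axis) for the 81 members and for the other named loci that met the FPKM minimum. The members fill the upper left corner that the rule defines, and Ca_14770, Ca_20640, Ca_19091 and Ca_05851 lie far from the rest.

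Outside the leading 10, 4 members also reached 2-fold in both genotypes, all at low levels and all picked after their values were seen. Ca_20664 had FPKM 2.44 in ST salinity stress and 0.991 in ST control, and 1.37 in SS salinity stress and 4.16 in SS control. Ca_22855 had 2.58 in ST salinity stress and 0.998 in ST control, and 1.30 in SS salinity stress and 3.11 in SS control. Ca_03507 and Ca_24325 had no value above 3.50. On the log2(FPKM + 1) scale the pseudocount of 1 places such genes below abundant ones with smaller folds. Several members combined a large fold in one genotype with a small one in the other, and those given here were picked after their values were seen. Ca_20888 had 3.50 in ST salinity stress and 0.879 in ST control (3.98-fold), and 1.42 in SS salinity stress and 2.56 in SS control (1.81-fold lower). Ca_17424 had 12.9 in ST salinity stress and 3.18 in ST control (4.05-fold), and 1.28 in SS salinity stress and 2.11 in SS control (1.64-fold lower). These genes leaned toward ST, and others leaned toward SS. Ca_00767 had 4.10 in ST salinity stress and 2.53 in ST control (1.62-fold), and 0.790 in SS salinity stress and 4.56 in SS control (5.76-fold lower). Ca_21653 had 2.13 in ST salinity stress and 1.20 in ST control, and 1.04 in SS salinity stress and 5.19 in SS control (4.99-fold lower). On the log2(FPKM + 1) scale the SS difference was the larger one in 46 members and the ST difference in 35.

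The members of intermediate level given next were also picked after their values were seen. Ca_17474 had 32.0 in ST salinity stress and 16.2 in ST control, and 26.1 in SS salinity stress and 74.0 in SS control (2.84-fold lower), with the sensitive control far above the other groups. Ca_09313 had 63.1 in ST salinity stress and 37.1 in ST control, and 23.9 in SS salinity stress and 58.0 in SS control (2.42-fold lower). Ca_25361 had 30.0 in ST salinity stress and 16.3 in ST control, and 6.99 in SS salinity stress and 18.0 in SS control. In Ca_09313 and Ca_25361 the stressed sensitive roots had the lowest level of the 4 groups. Ca_01374 had 46.2 in ST salinity stress and 20.1 in ST control, and 16.3 in SS salinity stress and 26.2 in SS control, so here the stressed tolerant roots stood apart at the top. By their highest FPKM, 15 members were below 5, 20 between 5 and 10, 25 between 10 and 50, 5 between 50 and 100, and 16 at 100 or more.

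Of the 5 members with the highest mean level, Ca_14770 is described above and Ca_13970 below. Ca_03261 had the highest mean level, with FPKM 962 in ST salinity stress and 479.5 in ST control (2.01-fold) and with 184 in SS salinity stress and 279 in SS control (1.52-fold lower). Ca_16068 had 289.7 in ST salinity stress and 170.3 in ST control (1.70-fold), and 139 in SS salinity stress and 218 in SS control (1.57-fold lower). Ca_02983 had 256 in ST salinity stress and 170.2 in ST control, and 138 in SS salinity stress and 208 in SS control, and at 1.5-fold in ST and 1.51-fold in SS it was among the 3 members nearest to the threshold. A difference of this size between pooled values has no measured error here.

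The rule left the order of the genotypes partly free, and this order differed among the members. It excludes a member that is higher in ST in the control and lower in ST under stress. Of the named loci with the FPKM minimum, 12.5% fell outside the orders given next. In 59 members (72.8%) ST was the higher genotype under stress and SS was the higher one in the control, so that the genotypes crossed, an order seen in 22.7% of the named loci with the FPKM minimum. In 18 members (22.2%, against 35.5%) ST was higher in both conditions and in 4 (4.94%, against 29.4%) SS was higher in both. Since the rule requires opposite changes, it favours crossing, and the shares were not tested. Of the 36 loci with the opposite pattern, 31 (86.1%) crossed in the other sense. In 30 members the genotypes differed at least 1.5-fold both ways, with ST higher under stress and SS higher in the control. Among all 15710 named loci with the FPKM minimum, members included, 53 did so. The rule allows only ST salinity stress or SS control to be the highest group, and only SS salinity stress or ST control to be the lowest. ST salinity stress was the highest group in 55 members (67.9%, against 31.5% of the named loci with the FPKM minimum). SS control was the highest in the other 26, and in 3567 of the 15710 loci. SS salinity stress was the lowest group in 54 members (66.7%, against 32.1%). ST control was the lowest in 27, and in 4834 of the 15710 loci.

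The sizes of the genotype differences rest on the same 4 FPKM values that chose the members and are given as a description. Under stress, ST was at least 1.5-fold higher than SS in 69 members (85.2%, against 7.81% of the named loci with the FPKM minimum). It was at least 1.5-fold lower in 1 (1.23%, against 3.66%). In the control, ST was at least 1.5-fold lower than SS in 42 members (51.9%, against 5.29%) and at least 1.5-fold higher in 11 (13.6%, against 4.77%). Both shares in the control were above those of all these loci, which was not tested. The log2 ratio of ST to SS, averaged over both conditions, is not bounded by the rule. Its median was 0.35 over the 74 members above 0 in every group, against 0.02 over the named loci with the FPKM minimum, but it was -0.17 among the 8 such members that remained with a 2-fold threshold. Where no group was below FPKM 1 (16460 named loci), ST over SS had a median log2 value of 0.05 under stress and -0.01 in the control. Scaling the columns by their median ratios gave a median of 0.22 for the members in place of 0.35, and upper-quartile scaling gave 0.26.

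**Figure D4:**
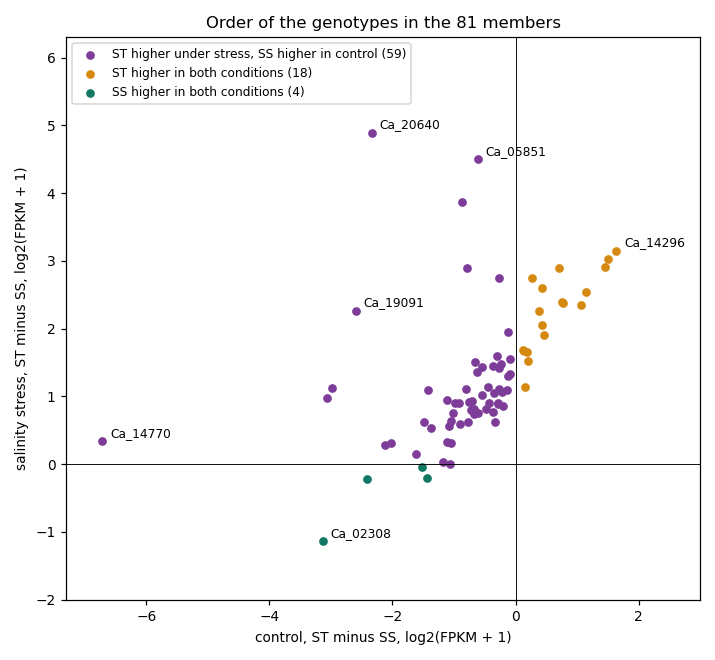
Difference of ST from SS on the log2(FPKM + 1) scale under salinity stress (vertical axis) and in the control (horizontal axis) for the 81 members, coloured by which genotype was higher. The 59 members in the upper left crossed, 18 in the upper right were higher in ST in both conditions, and 4 in the lower left were higher in SS in both, with Ca_02308 the lowest.

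The 18 members that were higher in ST throughout included many of the abundant ones. In 11 of them the highest FPKM was at least 50, against 10 of the 59 that crossed. Of the named loci with the FPKM minimum, 13.1% had a highest FPKM from 50 to below 100 and 15.1% one of 100 or more. The median FPKM of the 18 members was 112 in ST salinity stress and 63.0 in ST control, and 19.5 in SS salinity stress and 36.0 in SS control. The genes furthest toward ST were Ca_14296 and Ca_15786. Ca_14296 had 292 in ST salinity stress and 159 in ST control, and 32.0 in SS salinity stress and 50.5 in SS control. Ca_15786 had 103 in ST salinity stress and 53.7 in ST control, and 11.8 in SS salinity stress and 18.4 in SS control. In all 18 of these members the rule and the order of the genotypes together place both ST values above both SS values and make the ratio of ST to SS larger under stress, so this is no observation about single genes. Among 4 others picked after their values were seen, Ca_19297 had 121 in ST salinity stress, 72.3 in ST control, 15.2 in SS salinity stress and 25.7 in SS control, and Ca_00844, Ca_05815 and Ca_16138 had between 129.8 and 214 in ST salinity stress and between 78.7 and 132 in ST control, against 23.9 to 39.1 in SS salinity stress and 46.2 to 77.3 in SS control.

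The 4 members that were higher in SS in both conditions were Ca_02308, Ca_16265, Ca_23519 and Ca_01259. Ca_02308 had 6.26 in ST salinity stress and 3.50 in ST control, and 15.0 in SS salinity stress and 38.4 in SS control, so the stressed sensitive roots still had more than the stressed tolerant ones. Ca_01259 had 7.20 in ST salinity stress and 1.69 in ST control (4.26-fold), and 8.56 in SS salinity stress and 13.3 in SS control. In this gene the genotypes were far apart in the control and close to each other under stress. Ca_23519 likewise had 6.94 in ST salinity stress and 3.85 in ST control, and 7.20 in SS salinity stress and 12.97 in SS control, while Ca_16265 was low in all groups, between 1.71 and 6.36.

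In some members the high levels of both genotypes were close to each other, and so were the low ones. The high values (ST salinity stress and SS control) lay within 25% of each other in 24 members (29.6%), against 72.9% of the named loci with the FPKM minimum. The low values (ST control and SS salinity stress) did so in 20 members (24.7%), against 67.2%, and both did in 13 members, against 8571 of the 15710 loci. The shares among the members were below those among all these loci, and the difference was not tested. Besides Ca_09413, these 13 included Ca_01556, with 15.5 in ST salinity stress, 8.70 in ST control, 8.88 in SS salinity stress and 14.4 in SS control. Ca_21283 had 19.5 in ST salinity stress, 9.59 in ST control, 9.79 in SS salinity stress and 16.2 in SS control, and Ca_22236 had 15.3, 9.47, 8.28 and 15.8 in the same groups. For these genes, picked after their values were seen, the level in unstressed tolerant roots was close to that in stressed sensitive roots.

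Members made up 0.516% of the named loci with the FPKM minimum. The study names 17 genes by identifier, picked there on these samples, which makes them no independent evidence of direction. Of these, 2 were members. Ca_13970, described there as a homolog of an Arabidopsis transmembrane protein involved in oxidative and osmotic stress responses, had FPKM 286 in ST salinity stress and 141 in ST control (2.03-fold), and 169 in SS salinity stress and 286 in SS control (1.69-fold lower). The high values of the genotypes were nearly equal, and the low values differed by 1.20-fold. Ca_02410, described as a homolog of a MATE efflux family protein, a family of membrane carriers that move organic compounds out of the cytosol, had 7.43 in ST salinity stress and 3.95 in ST control (1.88-fold), and 3.47 in SS salinity stress and 7.34 in SS control (2.12-fold lower). Both genes belong to the 13 whose high and low levels each lay within 25%. The study reports Ca_13970 as differentially expressed under stress in both genotypes, and Ca_02410 as downregulated under stress in SS.

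The other named genes are given for comparison. The 17 genes stood on 18 loci. At the same thresholds 8 loci were higher and 5 lower under stress in ST, and 2 were higher and 9 lower in SS. Among all named loci with the FPKM minimum, 5.21% met the ST condition of the rule and 3.14% the SS condition. Since the study chose these genes for changes in the same samples, frequent changes among them follow from that choice. Ca_25099, a homolog of the MATE protein FRD3, which in Arabidopsis exports citrate for iron transport, was lower in both genotypes, with 1.39 in ST salinity stress and 10.4 in ST control, and 8.89 in SS salinity stress and 26.5 in SS control. Both MATE homologs were thus lower under stress in SS, and in ST they differed in direction. Ca_18464, which the study reports as upregulated in SS and downregulated in ST, did not reach the threshold in either genotype here. It had 140 in ST salinity stress and 116 in ST control, and 155 in SS salinity stress and 124 in SS control. Ca_09442, a homolog of the transcription factor WRKY33, was lower under stress in SS, with 21.4 in SS salinity stress and 52.4 in SS control. In ST its values of 80.1 in ST salinity stress and 62.6 in ST control had the direction of the members but did not reach the 1.5-fold threshold. Ca_12433, a homolog of the nuclease gene AtCAN2, had 28.9 in ST salinity stress and 25.7 in ST control, and 18.1 in SS salinity stress and 27.8 in SS control, so it too met only the SS condition. Ca_12085, a homolog of the phosphate transporter Pht1;5, met only the ST condition, with 185 in ST salinity stress and 108 in ST control, and 143 in SS salinity stress and 115 in SS control.

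The edge of the rule cut through a continuum. Just inside it were Ca_03233, with 7.54 in ST salinity stress and 5.03 in ST control and 3.58 in SS salinity stress and 6.38 in SS control, and Ca_14308, with 25.1 in ST salinity stress and 16.7 in ST control and 11.3 in SS salinity stress and 18.4 in SS control, both at an ST fold of 1.5, and Ca_02983. Just outside were Ca_02262, Ca_26882 and Ca_01976, whose SS folds were all 1.49. Ca_02262 had 80.2 in ST salinity stress and 44.0 in ST control (1.82-fold), and 29.5 in SS salinity stress and 44.0 in SS control. Its controls were alike and its stressed groups differed more widely than those of many members.

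A few members share their identity with other genes or loci. In 3 members the locus carries 2 gene names, so the FPKM cannot be assigned to either gene. The locus of Ca_17581 and Ca_17582 had 225 in ST salinity stress, 145 in ST control, 43.3 in SS salinity stress and 68.9 in SS control. The locus of Ca_13523 and Ca_13524 had 8.90, 5.62, 7.01 and 12.8 in the same order of groups, and that of Ca_07464 and Ca_07465 had 11.1, 7.04, 6.08 and 9.41. In 4 other members (Ca_15064, Ca_16226, Ca_17466 and Ca_23519) the gene name also stands on a second locus, and no second locus met the rule. The second locus of Ca_15064 had 38.4 in ST salinity stress, 36.4 in ST control, 31.9 in SS salinity stress and 28.7 in SS control, whereas the member locus had 29.6 in ST salinity stress, 10.5 in ST control, 3.11 in SS salinity stress and 6.02 in SS control. The second locus of Ca_16226 was lower under stress in SS without being higher in ST, with 4.33 in ST salinity stress, 4.46 in ST control, 2.09 in SS salinity stress and 5.17 in SS control. The second locus of Ca_23519 was lower under stress in both genotypes. It had 0.709 in ST salinity stress, 2.18 in ST control, 1.42 in SS salinity stress and 2.41 in SS control. The second locus of Ca_17466 had 8.46, 6.82, 8.49 and 7.17 in the same order of groups. In these 4 genes the opposite directions of the rule were thus seen at 1 of 2 transcribed loci with the same name.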

How the data were processed

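Root RNA of 8 libraries (2 genotypes, control and salinity stress, 2 libraries each) was sequenced. Per the labels and methods, the authors filtered the single-end reads, mapped them with TopHat2 2.1.1 to the Kabuli chickpea genome, assembled transcripts with Cufflinks 2.2.1 and estimated expression with Cuffdiff (2.2.1 per the labels). The deposited FPKM values are 1 per locus and group, both libraries combined. The scaling between libraries is not given in the sources used here, and depth is unknown. With 4 pooled columns and 0 per library, the tests planned for single libraries were not run.

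Members were found with the plain FPKM ratio (at least 1.5) and an FPKM minimum of 2. Differences marked log2(FPKM + 1) use a pseudocount of 1 and understate changes at low levels. The search code was run on simulated data. The planted changes were at least 2-fold and at loci well above the FPKM minimum. This checks the code only, and not smaller or low-level changes such as those of many members. Python 3.11.15, pandas 2.3.3, numpy 2.4.6, scipy 1.17.1 and matplotlib 3.10.9 were used. Members, gene list and tests were chosen with earlier results of these data known. Named genes were the 10 with the largest smaller change, the 5 most abundant, the 3 with the largest change in each genotype and those the study names. They also included the 3 nearest each side of the threshold, the 2 furthest toward each genotype, up to 6 listed at 0 and up to 3 loci with several names. Others are marked or belong to a group that is named in full. Alternatives were a 2-fold threshold, FPKM minima of 0, 1 and 5, pseudocounts of 0.1 and 1, 2 scalings of the columns and loci with 1 gene name.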

Additional observations from a re-analysis of the deposited data

Results flagged for a closer look

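In all 81 members the stress difference had opposite directions in the 2 genotypes, which is what the rule selects, and the difference was not tested because each group has 1 pooled value. On the log2(FPKM + 1) scale, the change under stress in ST minus that in SS was 7.23 in Ca_20640, 5.11 in Ca_05851 and 4.74 in Ca_25133. It was 4.04 in Ca_00052, 3.68 in Ca_25662 and 3.01 in Ca_15063. The first 5 of these genes are listed at 0 in at least 1 group, while Ca_15063 is above 0 in all. In the other 4 leading genes, all above 0 in every group, it was 2.49 in Ca_06932, 2.34 in Ca_02239, 2.06 in Ca_09413 and 1.90 in Ca_06009.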

How the results depend on the processing

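No paired analysis was possible because the table holds 1 pooled column per group. For the same reason leaving out a library and the fit with replicate numbers as a block were not run. Of 54 recomputed values (6 results under 9 alternatives), 41 kept their direction and stayed within a set range of the reported value, which was 1.5 times for counts, a binomial interval of ranks over the members for medians and a Wilson interval for the share. These include member counts of 54 and 117 beside 81, and median log2 ratios of ST to SS from 0.22 to 0.42 beside 0.35. Counts have no direction, and the rule fixes the direction of the stress ratios in ST and SS under every alternative. The intervals treat the members as independent, so they are only a reading aid and measure no error between libraries. With a 2-fold threshold 13 members remained and the opposite pattern had 8 loci, the median log2 ratio under stress was 1.37 in ST and -1.26 in SS, 92.3% of the members had the genotypes crossed, and the median log2 ratio of ST to SS turned to -0.17. Without an FPKM minimum there were 437 members and 250 loci of the opposite pattern, with medians of 1.05 in ST and -1.03 in SS. The opposite pattern had 55 loci with an FPKM minimum of 1, 15 with a minimum of 5, and 19 with the ratio of FPKM + 1. It had 42 loci beside 74 members with median-ratio scaling, and 44 beside 73 with upper-quartile scaling. The member count was between 54 and 117 under the other alternatives. Both scalings of the columns kept the same 73 members, and 6 members (Ca_00052, Ca_02239, Ca_05851, Ca_06932, Ca_09413 and Ca_25133) were kept under all 9 alternatives. Of these 6, Ca_00052, Ca_05851 and Ca_25133 are listed at 0 in a group of low level, and a 0 meets any plain fold threshold. All alternatives use the same 4 pooled columns that chose the members. The cause of these shifts was not tested beyond the settings themselves. Depth is unknown, so the precision of low FPKM values cannot be given.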

Other observations

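Loci without a gene name, which the choice of members left out, also showed the pattern. Of the 2245 unnamed loci with FPKM of at least 2 in ST salinity stress and SS control, 65 (2.90%) met the thresholds, against 0.516% of the named ones. Of these 65, 3 were listed at 0 in some group. Among those above 0 throughout, the largest smaller change was at XLOC_020092, with FPKM 552 in ST salinity stress and 174 in ST control, and 149 in SS salinity stress and 439.6 in SS control. XLOC_016003 had 91.5 in ST salinity stress and 19.5 in ST control, and 35.1 in SS salinity stress and 96.2 in SS control. At both loci SS was the higher genotype in the control and ST under stress. The difference between named and unnamed loci was not tested, and what these loci encode is not given in the sources used here.

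In the numbering of the table, 3 of the 81 members (3.70%) had another locus with the pattern within 10 numbers, against 6.79% of the other named loci with the FPKM minimum. The named pair was Ca_04731 and Ca_04735. Ca_04731 had 8.77 in ST salinity stress and 3.15 in ST control, and 2.62 in SS salinity stress and 5.03 in SS control. Ca_04735 had 3.62 in ST salinity stress and 2.25 in ST control, and 1.54 in SS salinity stress and 2.74 in SS control. By identifier, the members Ca_01556 and Ca_01562, Ca_17466 and Ca_17474, and Ca_15063 and Ca_15064 also lay within 10 numbers of each other. The member loci of these pairs are not near each other in the numbering of the table. No share over all loci was computed for identifiers, and positions in the genome are not given in the sources used here.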
